A study of Bos taurus with 27 samples.

Results

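The 40 genes described here were low in most of 27 day-15 cattle embryos and high in a few of them. They were chosen by 3 measured values. The median level over the 27 embryos was below 1 CPM (the gene's count over the embryo's total count, times 1e+06), the highest embryo reached at least 5 CPM, and the least-squares slope of log2(CPM + 1) on log2 size lay between -0.35 and 0.35. Of the 19994 gene identifiers in the files, 67 met the limits on median and maximum. The slope limit kept 40 of them and left out 27. Median, maximum and slope are therefore given as descriptions, with no test. The comparisons below concern which embryos held the high values, which genes were high together, and whether maternal diet or the letter in the embryo's title went with them.

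The series examined diet effects in whole cattle (Bos taurus) embryos on day 15 of pregnancy, with 1 RNA-seq library per embryo. There were 6 long embryos and 10 short embryos of dams on an omega-3 diet, and 11 short embryos of dams on an omega-6 diet. Their size numbers, whose unit the labels do not state, were 10.5 to 20.3, 0.4 to 9.5 and 1.4 to 7.7. No long omega-6 embryo was analysed here. The titles also give an embryo number, used below as the embryo's name, and the letter m (15 embryos) or f (12 embryos), read here as male and female. Dams are not named and several embryos may share one, so the p-values speak of the spread among these embryos only. Total counts ran from 17931620 to 29868584, so that 5 CPM stood for 89.7 to 149 counts. In whole embryos, fewer cells of a type and less RNA per cell cannot be told apart.

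Around day 15 the cattle embryo floats unattached in the uterine lumen. Its trophectoderm, the outer epithelium that later forms the placenta, elongates over a few days and secretes interferon tau, the signal by which the dam recognises the pregnancy. A whole-embryo library mixes this layer with the hypoblast lining it and the small embryonic disc. The files name genes by Ensembl identifier only, and the RefSeq gene table used here matched 0 of them. The genes are thus given by identifier, without roles, sequences or marker checks, and the tissue label could not be checked against its markers.

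The highest value of the 40 genes ran from 5.04 to 59.5 CPM, with a median of 7.19, and rested on 93 to 1450 counts. Their median levels had a median of 0.472 CPM. In 15 genes the highest value was at least 10 CPM. The highest embryo held between 14.2% and 100% of a gene's CPM summed over the 27 embryos, with a median of 24.5%. Low values outside the high embryos were mostly not zero: 23 of the 40 genes had at least 1 count in every embryo, and 4 had no count in 13 or more embryos. An embryo is called a carrier of a gene where it reached 5 CPM, the level that the choice of genes asked of the maximum. By that measure 22 genes had 1 carrier, 9 had 2, 5 had 3, 2 had 5 and 2 had 6.

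**Figure D1:**
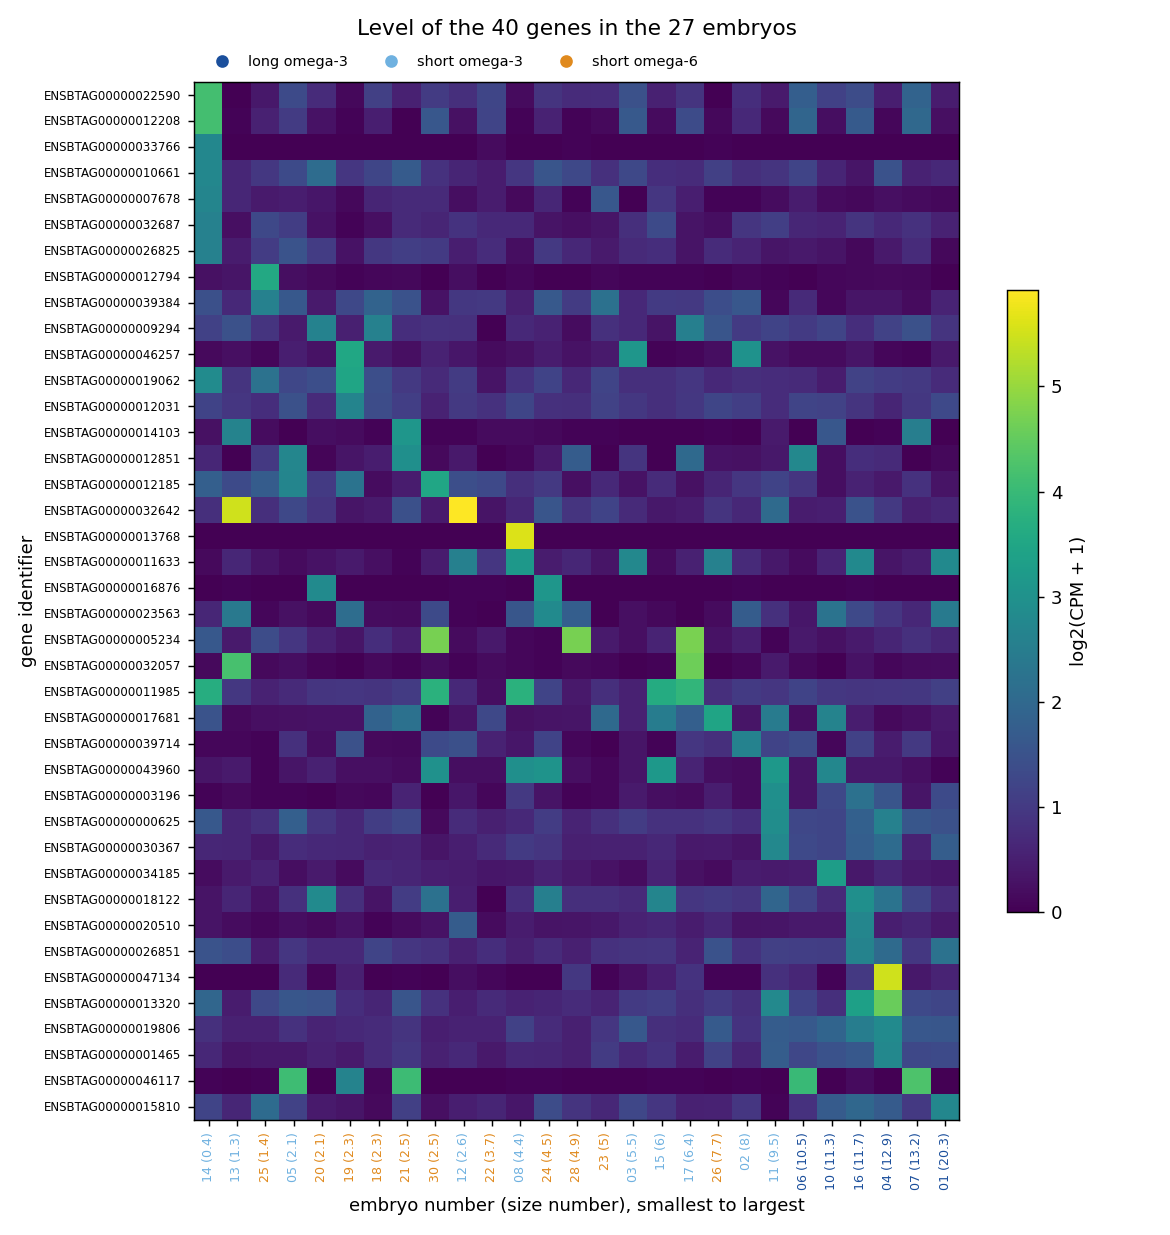
Levels of the 40 genes (rows, ordered by the embryo of their highest value) as log2(CPM + 1) in the 27 embryos (columns, from the smallest size number on the left to the largest on the right, numbers coloured by group). The brightest cells form single spots or short runs, from 59.5 CPM in embryo 12 down to 5.04 CPM in embryo 14, and 7 genes have their highest value in embryo 14 at the far left.

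The carriers were spread widely. Of the 27 embryos, 25 carried at least 1 of the genes and 18 held the highest value of at least 1. Embryo 14, the smallest (size number 0.4, short omega-3), carried 9 and held the highest value of 7. Embryos 04, 11 and 16 carried 5 each, and embryos 08, 19 and 30 carried 4 each. The omega-6 embryos 22 and 23 carried 0. The other embryos carried 1 to 3.

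**Figure D2:**
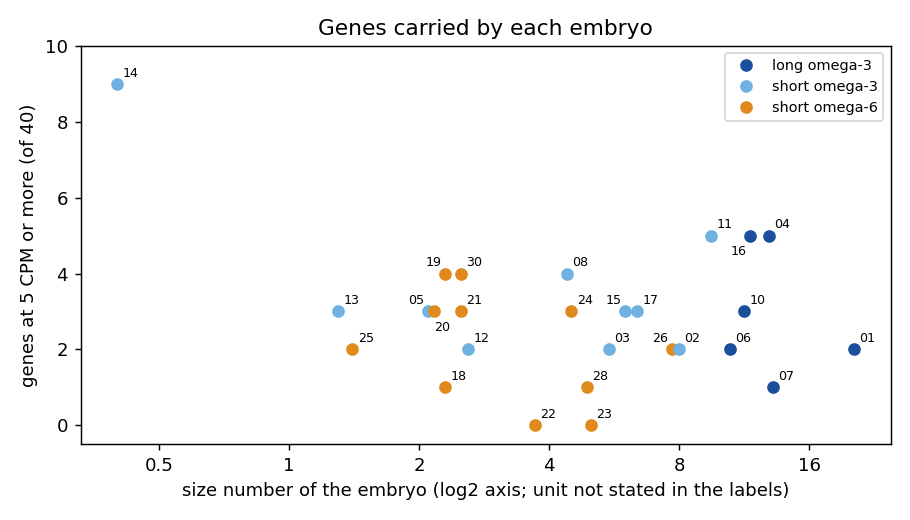
Number of the 40 genes at 5 CPM or more in each embryo (y axis) against its size number (x axis, log2 scale, unit not stated), with 1 numbered point per embryo coloured by group. Embryo 14 at the far left stands at 9, embryos 04, 11 and 16 at 5, and embryos 22 and 23 at 0.

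The clearest patterns were steps, with a gap between the carriers and all other embryos. A gene is said here to have a step where its lowest carrier was at least 3 times its highest other embryo, a measure chosen after the values were seen. There were 18 such genes: 9 with 1 carrier, 3 with 2 and 6 with 3 or more. In 12 of them the step was at least 10-fold. The genes with 3 or more carriers show how alike the carriers could be.

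ENSBTAG00000005234 stood at 25.6, 25.2 and 25.2 CPM in embryos 17, 28 and 30 (620, 682 and 676 counts). The other 24 embryos lay between 0.0383 and 2.09 CPM, with a median of 0.3501. The carriers' mean was 25.3 ± 0.248 CPM (SD, n = 3), a coefficient of variation of 0.978%. The 3 embryos were thus nearly level although 1 came from an omega-3 and 2 from omega-6 dams. Counts of this size carry a counting error larger than that spread. It was the smallest among the 6 genes with a step and 3 or more carriers, and the largest was 36.0% for ENSBTAG00000046117. All 3 were short and bore the letter f, and their size numbers ran from 2.5 to 6.4. The highest other values were 54 counts in embryo 14 and 43 in embryo 25.

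ENSBTAG00000046117 had 5 carriers of all 3 groups. Embryo 07 stood at 18.4 CPM and embryo 06 at 15.2 among the long embryos, embryo 05 at 15.8 among the short omega-3 embryos, and embryos 21 and 19 at 15.8 and 5.28 among the omega-6 embryos. The remaining 22 had 0 to 3 counts, and 13 of them had none. Embryo 19, at 121 counts, was a carrier at a lower level than the other 4, which held 350 to 413 counts. The carriers' sizes covered 2.1 to 13.2.

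ENSBTAG00000011985 was carried by embryos 08, 14, 15, 17 and 30 at 12.8, 11.9, 11.5, 13.97 and 12.6 CPM. Their mean was 12.6 ± 0.949 CPM (SD, n = 5), against 0.161 to 1.32 CPM in the others. No long embryo carried it, and the long embryos lay between 0.885 and 1.29 CPM with a median of 0.943. The carriers were 4 omega-3 embryos and 1 omega-6 embryo.

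ENSBTAG00000043960 and ENSBTAG00000011633 had the most carriers, 6 each. For ENSBTAG00000043960 these were embryos 08, 10, 11, 15, 24 and 30, at 5.63 to 7.88 CPM (7.05 ± 0.837, SD, n = 6), against at most 0.496 CPM elsewhere. For ENSBTAG00000011633 they were embryos 01, 03, 08, 12, 16 and 26, at 5.01 to 7.98 CPM (5.98 ± 1.08, SD, n = 6), against at most 0.924 CPM. Embryo 08 was the only carrier of both. Each of these genes had carriers in all 3 groups. ENSBTAG00000046257 had 3 carriers, embryos 19, 03 and 02 at 10.5, 7.69 and 7.13 CPM, and at most 0.485 CPM in the other 24.

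**Figure D3:**
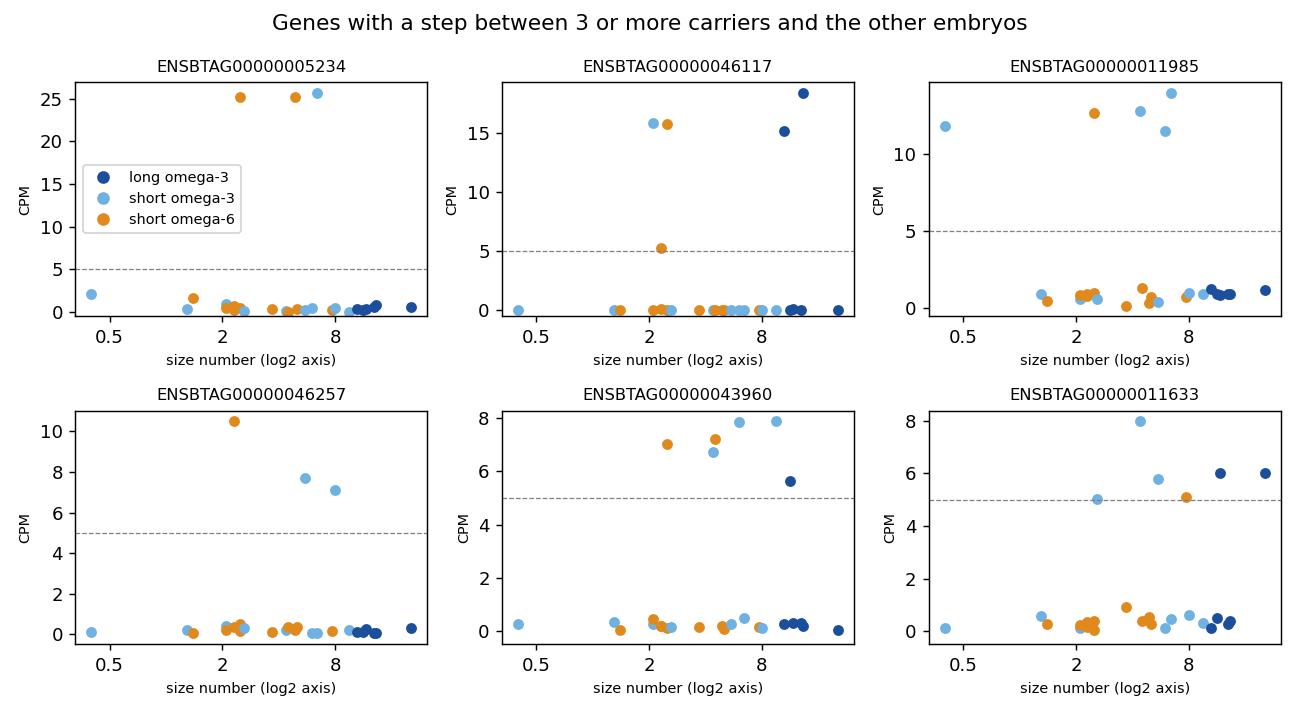
Level in CPM (y axis) of the 6 genes with a step and at least 3 carriers against embryo size number (x axis, log2 scale), with 1 point per embryo coloured by group and a dashed line at 5 CPM. Carriers form a separate upper layer in each panel, for example 25.2 to 25.6 CPM against at most 2.09 for ENSBTAG00000005234, and come from both diets in every panel.

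Among genes with a step and 2 carriers, ENSBTAG00000032642 held the highest value of all 40. It stood at 59.5 CPM in embryo 12 and 43.8 CPM in embryo 13, both short omega-3, and at most at 3.10 CPM elsewhere. ENSBTAG00000032057 stood at 23.6 and 17.4 CPM in embryos 17 and 13, also short omega-3, and at most at 0.344 CPM elsewhere. ENSBTAG00000016876 was the reverse in diet: its carriers were the short omega-6 embryos 24 (7.64 CPM, 162 counts) and 20 (6.08 CPM, 109 counts). None of the other 25 embryos had more than 1 count of it.

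The genes with a step and a single carrier included the most uneven of all. ENSBTAG00000013768 had 1392 counts (47.5 CPM) in embryo 08 and 0 in each of the other 26, which allows up to 3 counts in each of them, a floor that covers counting error only. ENSBTAG00000047134 stood at 44.3 CPM in embryo 04 and at most at 0.974 CPM elsewhere, a 45.5-fold gap. ENSBTAG00000012794 stood at 10.8 CPM in embryo 25 against at most 0.263 CPM, and ENSBTAG00000034185 at 8.82 CPM in embryo 10 against at most 0.595 CPM. Such a gene rests on 1 library. Its level there has no replicate.

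The 22 genes without a step graded from carriers to the other embryos. ENSBTAG00000018122 is an example: its carriers 16, 20 and 15 stood at 6.68, 6.08 and 5.48 CPM, and the next embryo, 24, stood at 4.86. ENSBTAG00000009294 stood at 5.19 and 5.11 CPM in the omega-6 embryos 20 and 18, and the omega-3 embryo 17 lay just under the limit at 4.92 CPM. The next, embryo 26, stood at 1.94 CPM. ENSBTAG00000014103 stood at 7.61 and 5.23 CPM in embryos 21 and 13 and at 4.80 in embryo 07, with embryo 10 next at 2.03 CPM. For these genes the number of carriers turns on where the limit is set.

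Genes with their highest value in embryo 14 formed the largest group, with 7 members. ENSBTAG00000022590 and ENSBTAG00000012208 stood there at 16.9 and 16.7 CPM (435 and 431 counts). Over the other 26 embryos they reached at most 2.67 and 3.02 CPM. ENSBTAG00000033766 had 147 counts (5.69 CPM) in embryo 14, at most 3 counts elsewhere and none in 23 embryos. The other 4, ENSBTAG00000010661, ENSBTAG00000007678, ENSBTAG00000032687 and ENSBTAG00000026825, lay between 5.04 and 5.66 CPM in embryo 14. Embryo 14 also carried ENSBTAG00000011985 and ENSBTAG00000019062, which were higher in embryos 17 and 19. All 7 slopes on size were negative, from -0.290 to -0.133, within the allowed range. Embryo 14 is the smallest, so a highest value there itself bears on this sign.

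Whether these 7 genes also moved together elsewhere was described by the Pearson correlation of log2(CPM + 1) over the other 26 embryos. Its median over the 21 pairs was 0.0489, and 2 pairs reached 0.5. One was ENSBTAG00000022590 with ENSBTAG00000012208, at r = 0.834. In the long embryos 06 and 07 the first stood at 2.42 and 2.67 CPM and the second at 2.80 and 3.02 CPM, their next highest values. Their rows lie 9 apart in the files, the smallest distance between any of the 40 genes. The files do not state what their row order means. Sharing embryo 14 as the highest embryo thus went with a common pattern in the remaining embryos for few of these pairs.

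A second group was high in embryos 04, 11 and 16, with size numbers of 9.5 to 12.9. They are omega-3 embryos, 2 long and 1 short, but neither size nor diet sets them apart: embryos 06 (10.5) and 10 (11.3) are omega-3 embryos in the same size range, and all embryos from size 8 upward are omega-3. These 3 embryos held the highest value of 11 genes, a grouping made after the values were seen. In 5 of the 11 (ENSBTAG00000013320, ENSBTAG00000003196, ENSBTAG00000000625, ENSBTAG00000030367 and ENSBTAG00000001465) they were also the 3 highest embryos. ENSBTAG00000013320 stood at 22.8, 5.93 and 9.30 CPM in embryos 04, 11 and 16, and at most at 2.87 CPM in the other 24, with a median there of 0.764. Embryos 06 and 10 stood at 1.29 and 0.745 CPM. ENSBTAG00000003196 stood at 1.93, 6.77 and 3.59 CPM against at most 1.504 CPM. ENSBTAG00000000625 stood at 5.12, 6.51 and 2.52 CPM against at most 2.44 CPM.

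The order of the 3 embryos differed between these genes, with embryo 04 highest for ENSBTAG00000013320 and ENSBTAG00000001465 and embryo 11 for the other 3. The 3 embryos are among the larger ones, so the grouping itself bears on the sign of the slopes. All 11 slopes were positive, from 0.121 to 0.347. ENSBTAG00000019806, at 6.15 CPM in embryo 04 and 4.74 CPM in embryo 16, had the steepest. Its lowest, median and highest values were 2.02, 2.47 and 6.15 CPM in long embryos, 0.451, 0.787 and 2.30 CPM in short omega-3 embryos and 0.410, 0.610 and 2.20 CPM in short omega-6 embryos. The other 5 members of this group reached 5 CPM in 1 of the 3 embryos each. ENSBTAG00000020510, for example, stood at 5.62 CPM in embryo 16 but at 0.408 and 0.268 CPM in embryos 04 and 11.

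Over the 24 embryos besides these 3, the 55 pairs of the 11 genes had a median r of 0.125, and 10 pairs reached 0.5. The 5 genes and ENSBTAG00000019806 supplied the closest pairs when only the highest embryos were left out: ENSBTAG00000019806 with ENSBTAG00000001465 had r = 0.868, and ENSBTAG00000003196 with ENSBTAG00000030367 had r = 0.844, each over 26 embryos. The group's other embryos stayed in these r values, so the grouping itself bears on them. The embryos behind such values share size as well, and size was allowed to enter these genes within the slope limit. Its part in these correlations was not tested.

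Over all 40 genes there were 780 pairs, of which 109 shared at least 1 carrier and 4 shared at least 2. ENSBTAG00000046117 and ENSBTAG00000012851 were both carried by embryos 05, 06 and 21, which are of all 3 groups. ENSBTAG00000011985 and ENSBTAG00000043960 were both carried by embryos 08, 15 and 30, of both diets. ENSBTAG00000005234 and ENSBTAG00000011985 shared embryos 17 and 30, and ENSBTAG00000013320 and ENSBTAG00000000625 shared embryos 04 and 11. In each of these 4 pairs at least 1 gene also had a carrier that the other lacked. Embryo 28, for example, stood at 25.2 CPM for ENSBTAG00000005234 and had 9 counts of ENSBTAG00000011985.

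Genes with the same highest embryo were compared with genes of different ones after leaving those embryos out, since a shared highest embryo fixes part of the correlation. The median r was 0.0535 over 45 pairs with the same highest embryo (range -0.302 to 0.868, 8 pairs at 0.5 or more) and -0.0347 over 696 pairs with different ones (range -0.578 to 0.921, 25 pairs at 0.5 or more). The values are over 25 or 26 embryos that share their libraries, and they are descriptions. The 0.921 belonged to ENSBTAG00000032642 and ENSBTAG00000032057, which were high together only in embryo 13, at 43.8 and 17.4 CPM. Pairs at 0.5 or more were a larger share of those with the same highest embryo (8 of 45) than of the others (25 of 696), a difference not tested. In most pairs of genes that peaked in the same embryo r was still below 0.5 over the remaining embryos.

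Seen from the embryos, 66 of the 351 pairs of embryos (18.8%) shared at least 1 carried gene, 8 pairs shared 2, and none shared more. Among pairs of the same diet 36 of 175 (20.6%) shared a gene, and among pairs of different diets 30 of 176 (17.05%). Embryos 05, 06 and 21, with sizes 2.1, 10.5 and 2.5, shared 2 genes in each pairing. Of the 8 pairs that shared 2 genes, 3 were of the same diet and 5 of different diets.

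For each of the 18 genes with at least 2 carriers, the gene with the most similar log2(CPM + 1) over the 27 embryos was looked up among the 14451 others tested. This search was added after the values were seen, and the r values, from 0.675 to 0.983, are descriptions of the best of many. None of the genes found was one of the 40. ENSBTAG00000046257 was most like ENSBTAG00000039928 (r = 0.983), which lies 3 rows away in the files and stood at 2.71 to 3.84 CPM (81 to 88 counts) in embryos 02, 03 and 19 and at most at 0.115 CPM elsewhere. ENSBTAG00000043960 was most like ENSBTAG00000004052 (r = 0.938), in the adjacent row. That gene had 5 to 23 counts in each of the 6 carriers and 0 in all other 21 embryos. The same embryos thus held both genes of each pair, with the second gene of the pair at the lower level.

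ENSBTAG00000005234 was most like ENSBTAG00000010177 (r = 0.924), which lies 10467 rows away. It stood at 2.65, 1.88 and 1.31 CPM in embryos 17, 28 and 30 and at most at 0.4998 CPM elsewhere. ENSBTAG00000013320 and ENSBTAG00000000625 were most like ENSBTAG00000001857 (r = 0.897) and ENSBTAG00000021187 (r = 0.896). Here the second gene was present in all embryos: ENSBTAG00000021187 stood at 37.7 and 30.7 CPM in embryos 04 and 11, and its median in the non-carriers was 11.8 CPM. For the other 13 genes the best r was below 0.85, so no gene followed their carriers as closely. Whether any of these pairs are near-identical in sequence is not known here. How reads shared by near-identical genes were counted is not stated, so values of any such copies would be uncertain.

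**Figure D4:**
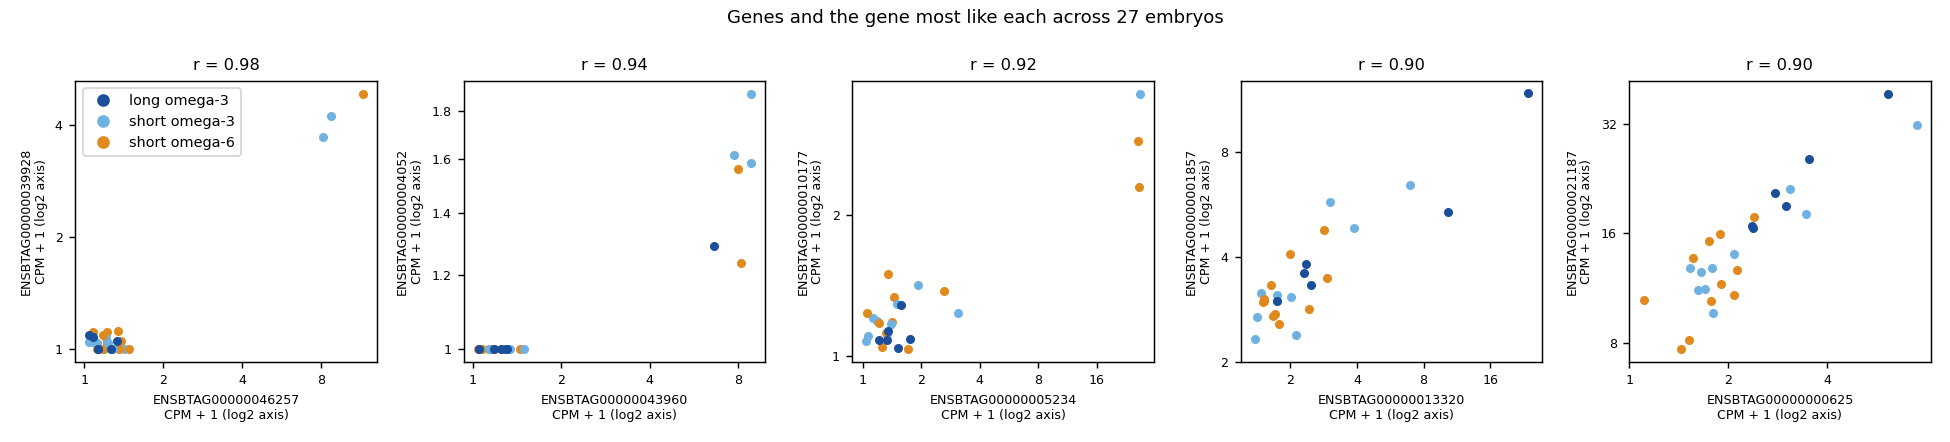
The 5 genes whose most similar gene reached r = 0.85, each plotted (x axis, CPM + 1, log2 scale) against that gene (y axis, CPM + 1, log2 scale), with 1 point per embryo coloured by group. In the first 3 panels the 3, 6 and 3 carriers stand apart from the other embryos on both axes, and in the last 2 the points form a gradient.

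Carriers did not sort by size alone. The 9 smallest embryos (0.4 to 2.5) carried 32 of the 77 gene and embryo combinations, the 9 middle ones (2.6 to 6.4) 18, and the 9 largest (7.7 to 20.3) 27. They held the highest value of 16, 8 and 16 genes. Embryo 14 alone accounts for 9 combinations and 7 highest values of the smallest embryos. Of the 18 genes with 2 or more carriers, 8 were carried by both long and short embryos, 10 by short embryos only and none by long embryos only. The slope limit removed genes that follow size, so these counts are descriptions.

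The 27 genes with the same median and maximum but a slope beyond the limit had a step less often. A step was found in 5 of them (18.5%), against 18 of the 40 (45%), and 10 (37.0%) had a single carrier, against 22 of the 40 (55%). The median number of carriers was 2 and 1. A slope on size needs values spread over several embryos, so the rule itself bears on this difference, and no test was made.

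Both diets supplied carriers. The 6 long omega-3 embryos carried 1 to 5 of the genes (median 2.5, mean 3 ± 1.67, SD), the 10 short omega-3 embryos 2 to 9 (median 3, mean 3.6 ± 2.12) and the 11 short omega-6 embryos 0 to 4 (median 2, mean 2.09 ± 1.45). The groups overlapped. Without embryo 14 the short omega-3 embryos carried 2 to 5 (mean 3 ± 1, n = 9). Omega-3 embryos were 59.3% of all embryos and held the highest value of 28 of the 40 genes (70%). When the genes were chosen again without embryo 14 this was 15 of 28 (53.6%), with omega-3 embryos making up 57.7%. The excess of highest values in omega-3 embryos was thus not seen in the genes chosen anew, of which 26 were among the 40. Leaving out embryo 14 changes every gene's median and slope, so some genes that peak in other embryos left the list too. The fall in share therefore does not rest on embryo 14's own genes alone. Among the 40 themselves, 11 of the 15 single-carrier genes besides those of embryo 14 still lay in omega-3 embryos.

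Gene by gene, the 18 with at least 2 carriers were mostly mixed: 12 had carriers of both diets, 4 of omega-3 only and 2 of omega-6 only. The 4 were ENSBTAG00000032642, ENSBTAG00000032057, ENSBTAG00000013320 and ENSBTAG00000000625, and the 2 were ENSBTAG00000016876 and ENSBTAG00000009294. None of these 6 genes had more than 3 carriers, so a single further embryo could make any of them mixed. The 22 genes with a single carrier fell in 11 embryos, 8 omega-3 (4 of them long) and 3 omega-6. Omega-3 embryos, 59.3% of all, carried 18 of these 22 genes, and 11 of 15 without the 7 genes of embryo 14.

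The choice of genes did not use the diet labels, and diet was tested over all 14452 genes with at least 15 counts in total, a limit that kept all 40. The choice did limit the slope on size, and every long embryo was omega-3, so it was not independent of diet. With edgeR's quasi-likelihood test and Benjamini-Hochberg adjustment, no gene passed an adjusted p of 0.05 for diet at equal size, 0 of the 40 and 0% of all genes tested. At an unadjusted p below 0.05 there were 12 of the 40, against 1579 of all genes (10.9%). Without embryo 14 there were 8 of the 39 then tested, against 704 genes (4.90%), and without embryos 22 and 25 there were 12, against 655 genes (4.55%). The share among the 40 was above the background in each of these fits. It was also above it for the letter m against f (8 of the 40, against 4.66% of all genes). Choosing genes that are high in few embryos may itself bear on such shares, here and below. They are therefore not read as an effect of diet or letter. Genes high in the same embryo share a library and are not independent, and the difference in share was not tested. The fitted difference was positive (higher in omega-3) in 24 of the 40 (60%) and in 50.7% of all genes, with a median log2 fold change of 0.21 against 0.00.

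The smallest p toward omega-3 belonged to ENSBTAG00000032057. Its lowest, median and highest values were 0, 0.108 and 0.221 CPM in long embryos, 0, 0.0922 and 23.6 CPM in short omega-3 embryos, and 0, 0.0769 and 0.149 CPM in omega-6 embryos. Apart from the carriers 13 and 17, the groups' ranges overlapped, with the highest other value at 0.344 CPM in embryo 11. Its fitted log2 fold change was 4.98 ± 1.21 (SE), with an edgeR adjusted p of 0.444, and DESeq2 gave 3.16 ± 1.05 (adjusted p = 0.384). ENSBTAG00000032642 followed at 2.73 ± 0.803 (edgeR adjusted p = 0.444), with group medians of 0.504, 0.687 and 0.849 CPM. The medians thus had the opposite order to the fold, and the highest values were in embryos 12, 13 and 11. ENSBTAG00000032687 was at 1.34 ± 0.412 (edgeR adjusted p = 0.444), with group medians of 0.568, 0.846 and 0.236 CPM, and its lowest values were 0.188 CPM in short omega-3 and 0.0436 CPM in omega-6 embryos.

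Toward omega-6 the smallest p belonged to ENSBTAG00000016876, at -6.28 ± 1.36 (edgeR adjusted p = 0.440), where 20 of the 27 embryos had no count. ENSBTAG00000039384 was at -1.25 ± 0.432 (edgeR adjusted p = 0.444). Its median was 0.263 CPM in long, 0.968 CPM in short omega-3 and 1.64 CPM in omega-6 embryos, with highest values of 0.626, 2.11 and 5.06 CPM. ENSBTAG00000017681 was at -1.09 ± 0.735 (edgeR adjusted p = 0.556), and at -1.80 ± 0.772 without embryo 14 (edgeR adjusted p = 0.775). Fitted folds of genes near zero depend on the small count added in the fit and are no bounds. DESeq2 called 1 gene, ENSBTAG00000013768 (adjusted p = 2.36e-16), which was counted in 1 of 16 omega-3 embryos and in none of 11 omega-6 embryos. edgeR gave it an adjusted p of 0.444.

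**Figure D5:**
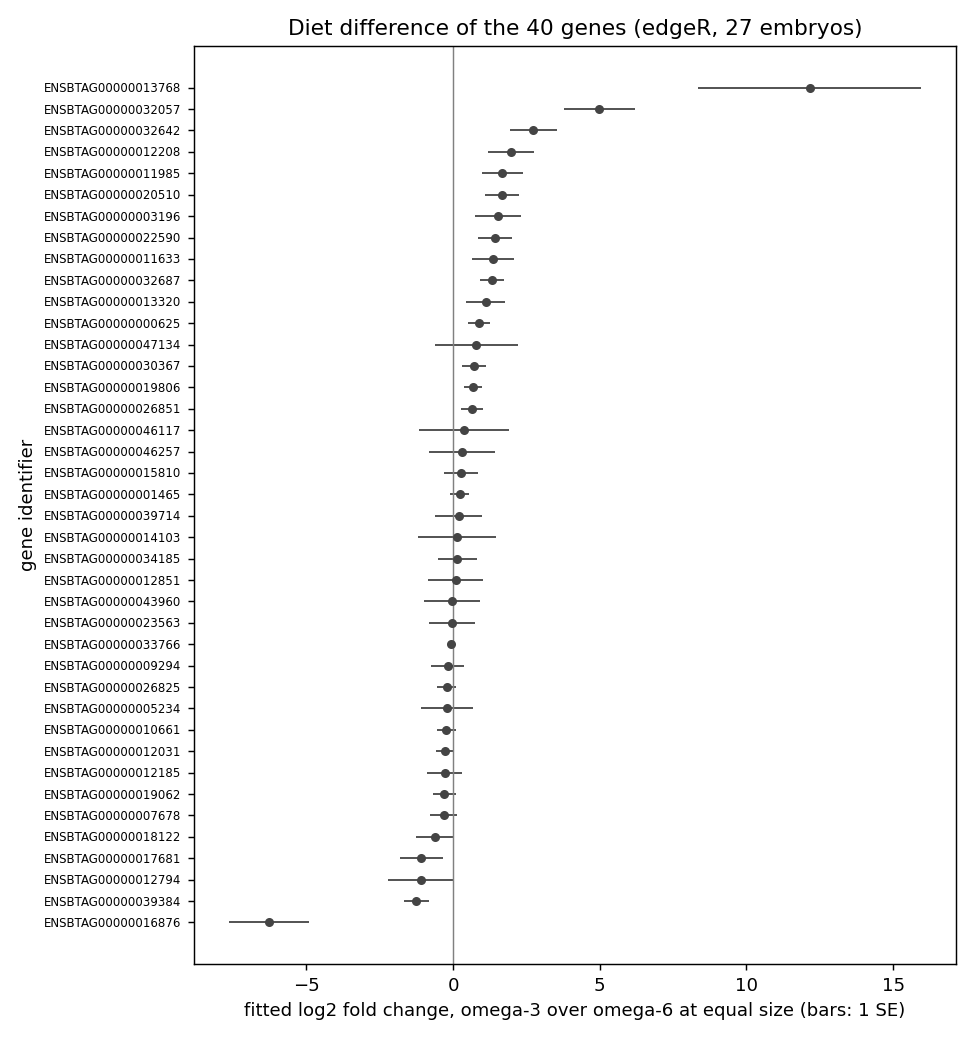
Fitted log2 fold change (x axis, omega-3 over omega-6 at equal size, bars 1 SE) of each of the 40 genes (y axis) in edgeR's quasi-likelihood model of 27 embryos. Values run from -6.28 for ENSBTAG00000016876 to 12.2 for ENSBTAG00000013768, a gene counted in 1 embryo whose fitted fold is no bound, and no gene passed the adjusted threshold.

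In short embryos, the only size class with both diets, 0 of the 40 were called by edgeR, with 1 gene (0.00692%) called among all tested. At an unadjusted p below 0.05 there were 10 of the 40, against 1200 of all genes (8.3%), and without embryos 22 and 25 again 10, against 366 genes (2.54%). Of the 40, 23 were positive (57.5%, against 52.0% of all genes), with a median log2 fold change of 0.23 against 0.01. The smallest adjusted p among them was 0.581. Of the genes above, ENSBTAG00000032057 was at 5.00 ± 1.09, ENSBTAG00000032642 at 3.66 ± 0.877 and ENSBTAG00000016876 at -6.25 ± 1.49 (SE). In the 21 short embryos with size added, ENSBTAG00000032642 was at 2.92 ± 0.955. ENSBTAG00000032057 was at 5.60 ± 1.16 without the letter in the model, and at 4.22 ± 1.02 in DESeq2. DESeq2 also called 0 of the 40 here, against 2 of 14452 genes tested. It gave no p-value, adjusted or not, for 11 of the 40, so those could not be called. They include ENSBTAG00000032642 and ENSBTAG00000016876. At an unadjusted p below 0.05 it had 8 of the 40, against 1306 of all genes (9.04%), with genes lacking a p-value left in both totals.

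Carriage differed little between the letters m and f. Embryos with m carried 2.87 ± 2.23 of the genes (SD, n = 15) and embryos with f 2.83 ± 1.27 (SD, n = 12). Of the 18 genes with at least 2 carriers, 14 had carriers of both letters, 2 of m only and 2 of f only. edgeR called 0 of the 40 for m against f, against 47 genes in all (0.325%). At an unadjusted p below 0.05 there were 8 of the 40, against 673 of all genes (4.66%), and the median log2 fold change was 0.17, against 0.02 over all genes. Earlier results of these data found embryo 07 at odds with its letter f. Without it the call remained 0 of the 40, against 67 of 14424 genes.

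The 2 genes carried by f embryos only were the nearest to a call. ENSBTAG00000032057 (carriers 13 and 17 of 12 f embryos) was at -4.10 ± 1.02 on the log2 scale, m over f (edgeR adjusted p = 0.0941). It passed when embryos 22 and 25 were left out (-4.53 ± 1.03, edgeR adjusted p = 0.0318), but not without embryo 14 (edgeR adjusted p = 0.194) or in DESeq2 (-2.63 ± 0.911, adjusted p = 0.332). ENSBTAG00000005234 (carriers 17, 28 and 30) was at -3.39 ± 0.904 (edgeR adjusted p = 0.166), and DESeq2 called it (-3.46 ± 0.790, adjusted p = 0.00383). The other 9 or 10 f embryos lay within the range of the m embryos, so either call rests on 2 or 3 embryos.

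Genes lay close to each limit of the choice on both sides. Just inside the limit on the maximum were ENSBTAG00000026825 (5.04 CPM) and ENSBTAG00000039384 (5.06 CPM), and just outside it ENSBTAG00000019386 (4.88 CPM) and ENSBTAG00000002526 (4.77 CPM). For the median, ENSBTAG00000013320 (0.994 CPM) and ENSBTAG00000039384 (0.964 CPM) were inside, and ENSBTAG00000032954 (1.004 CPM) and ENSBTAG00000005163 (1.04 CPM) outside. For the slope, ENSBTAG00000019806 (0.347) and ENSBTAG00000012185 (-0.337) were inside, and ENSBTAG00000022120 (0.3504) and ENSBTAG00000015441 (0.363) outside. The genes nearest the limits differed little from those just beyond them.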

How the data were processed

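Whole-embryo RNA was sequenced from 27 day-15 cattle embryos with a stranded kit for polyadenylated RNA as single reads of 100 bp, per the labels' protocols. STAR and featureCounts are named in the submitters' processing notes. Their versions are not stated, and the genome build, annotation and strand setting were not given in the sources used here. The deposited files hold the authors' whole-number read counts per gene, not normalised. From these, CPM were computed as count over the file's total. The 40 genes and the lists were chosen with earlier results of these data known.

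Tests used edgeR 4.0.16 in R 4.3.3 (quasi-likelihood F-test, trimmed mean of M-values scaling, two-sided, Benjamini-Hochberg over 14452 genes). Models held diet, log2 size and letter, or group and letter, over all 27 embryos. Genes needed a total count of 15, since a filter by group size would drop genes counted in few embryos. Standard errors are the fitted change divided by the root of F. DESeq2 1.42.0 was an alternative. The test was also run on simulated counts, with changes placed on all embryos of a group, diet or letter. Changes carried by only a few embryos were not simulated, so that run does not bear on such genes. The other alternatives were other limits for the choice, other scaling, filterByExpr, models with the letter left out or size added, and fits without embryo 14, 22 and 25, or 07.

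Genes were named by rule: the 8 highest, the 3 highest of each of the 4 embryos with most highest values, the 4 with most carriers, the 3 smallest diet p-values each way, and those nearest each limit. The other genes named were chosen after their values were seen. The RefSeq table (assembly ARS-UCD2.0) matched 0 of 19994 identifiers, so planned cell type markers were not used. No coordinates or sequences are given.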

Additional observations from a re-analysis of the deposited data

Results flagged for a closer look

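In the long embryos (n = 6) and the short omega-3 embryos (n = 10), the gap between each gene's extreme embryo and the next was set against Dixon's critical value, which chance passes in about 1 group in 20. The genes were chosen for high values in few embryos, so the choice largely fixes which values stand apart, and they are listed as descriptions that support nothing. There were 33 among 82 values, 10 in long and 23 in short omega-3 embryos. The short omega-6 embryos were not screened in this way, so the list does not compare the diets.

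In the long embryos, embryo 04 stood apart in ENSBTAG00000047134 (44.3 CPM), ENSBTAG00000001465 (5.75 CPM) and ENSBTAG00000000625 (5.12 CPM). Embryo 10 did so in ENSBTAG00000034185 (8.82 CPM), ENSBTAG00000043960 (5.63 CPM) and ENSBTAG00000017681 (5.30 CPM). Embryo 16 did so in ENSBTAG00000020510 (5.62 CPM) and in ENSBTAG00000016876 (0.0443 CPM, a single count). Embryo 06 did so in ENSBTAG00000012851 (5.76 CPM) and ENSBTAG00000007678 (0.376 CPM).

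In the short omega-3 embryos, embryo 14 stood apart in the number of genes carried (9, with 5 in the next) and in 8 genes. These were ENSBTAG00000022590 (16.9 CPM), ENSBTAG00000012208 (16.7 CPM), ENSBTAG00000019062 (6.24 CPM), ENSBTAG00000033766 (5.69 CPM), ENSBTAG00000010661 (5.66 CPM), ENSBTAG00000007678 (5.50 CPM), ENSBTAG00000032687 (5.07 CPM) and ENSBTAG00000026825 (5.04 CPM). Embryo 11 stood apart in ENSBTAG00000003196 (6.77 CPM), ENSBTAG00000000625 (6.51 CPM), ENSBTAG00000013320 (5.93 CPM), ENSBTAG00000030367 (5.82 CPM) and ENSBTAG00000001465 (2.33 CPM). These 2 embryos are the smallest and the largest of their group, at size numbers 0.4 and 9.5.

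The remaining values were spread over other short omega-3 embryos. Embryo 08 stood apart in ENSBTAG00000013768 (47.5 CPM), embryo 17 in ENSBTAG00000005234 (25.6 CPM) and ENSBTAG00000009294 (4.92 CPM), and embryo 05 in ENSBTAG00000046117 (15.8 CPM) and ENSBTAG00000012185 (5.43 CPM). Embryo 13 did so in ENSBTAG00000014103 (5.23 CPM), embryo 15 in ENSBTAG00000018122 (5.48 CPM), embryo 12 in ENSBTAG00000020510 (2.30 CPM) and embryo 02 in ENSBTAG00000039714 (5.12 CPM).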

How the results depend on the processing

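The number of genes chosen was 40. It was 15 with a maximum of at least 10 CPM, 20 with a median below 0.5 CPM and 25 with a slope within 0.2. It stayed within 1.5-fold with trimmed-mean (TMM) scaling (37, of which 36 were among the 40), without embryo 14 (28, of which 26 were) and without embryos 22 and 25 (39, of which 37 were). Genes with a single carrier numbered 22 at 5 CPM, 9 at 2 CPM and 10 at 10 CPM. The share of highest values in omega-3 embryos was 70%, with omega-3 embryos 59.3% of all. It was 53.6% (of 57.7%) without embryo 14, 74.4% (of 64%) without embryos 22 and 25 and 58.8% (of 47.6%) in the 21 short embryos alone, where embryo 14 remained. Calls among the 40 were 0 in edgeR for all 3 comparisons. At equal size DESeq2 called 1 for diet, its only call among 14452 genes. For m against f it called 1, against 77 of 14452 genes, with 11 of the 40 given no p-value. Without embryos 22 and 25 edgeR called 1 for m against f, against 89 of 14386 genes. The other alternatives of these comparisons called 0, though DESeq2 gave 11 of the 40 no p-value for diet in short embryos. With filterByExpr, 32 of the 40 remained among 11919 genes tested. The named diet differences kept their direction under the alternatives in which the gene was tested. filterByExpr dropped ENSBTAG00000032057 and ENSBTAG00000016876. The causes were not tested. Genes near 5 CPM rest on 89.7 to 149 counts, so their precision is limited mainly by having 1 library per embryo. No paired analysis was possible because embryo numbers do not repeat across groups.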
